A study of Mus musculus with 6 samples.

Results

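The genes described here are 10 protein-coding mouse genes, Rxfp1, Rspo2, Acot12, Irak1bp1, Faf1, Pcnxl4, Tmem60, Mlip, Etv1 and Cobl, whose raw counts tended to be lower in the hippocampus of 5xFAD mice than in that of WT mice. They are 10 of the 18263 genes in the deposited count table, and all 10 were among the 12952 genes with enough counts to be tested. They were picked by their counts in the comparison of the same 6 libraries, with no numeric limit attached, out of 6773 tested genes whose fitted difference was below 0. Their difference between genotypes is therefore a description of how they were chosen. Counts of members that a fit called, and intervals of their differences, come from the same counts and are no evidence for the difference.

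The study sequenced hippocampal RNA of 5xFAD and WT mice, all 6 months of age, in 3 libraries per genotype. The labels name replicates and do not say that each library came from a single mouse. In 5xFAD mice, the neuronal Thy1 promoter drives human transgenes that hold mutations of familial Alzheimer's disease, on a C57BL/6J background. These mice deposit amyloid early and model familial amyloid formation, not sporadic disease. WT mice carried no transgene, no group received an agent, and the labels do not give the sex of the mice. Whole hippocampus was used, so fewer cells of a type and less RNA per cell cannot be told apart in any value below.

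The 10 genes belong to no common pathway. Rxfp1 is the receptor for the peptide hormone relaxin, a G protein-coupled receptor that raises cyclic AMP, and Rspo2 is a secreted R-spondin that strengthens Wnt signalling by binding Lgr receptors and removing the ubiquitin ligases Znrf3 and Rnf43 from the cell surface. Acot12 hydrolyses acetyl-CoA to acetate in the cytosol. Irak1bp1 is a binding partner of the kinase IRAK1 in NF-kB signalling, and Faf1 is a Fas-associated protein with a UBX domain that recruits ubiquitinated proteins to the ATPase Vcp. Mlip binds lamin A/C at the nuclear envelope, Etv1 is an ETS transcription factor of the PEA3 group that is induced by FGF signalling and marks layer 5 projection neurons in neocortex, and Cobl nucleates actin filaments and promotes dendrite branching. Pcnxl4, listed as Pcnx4 in the reference annotation, encodes a multipass membrane protein of the pecanex family, and Tmem60 encodes a small transmembrane protein without a settled role.

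The libraries held 8450009, 8617365 and 12577839 counts in 5xFAD replicates 1 to 3, against 12102506, 11932360 and 8696392 counts in WT replicates 1 to 3. WT replicate 3 stood apart from the other libraries. Its Spearman correlations with the other 5 libraries across genes were 0.916 to 0.931, whereas the 10 pairs without it had 0.976 to 0.986. Across 12877 genes its deviation from the mean of the other 5 libraries went with the GC content of the transcript (Spearman -0.616). The other libraries, each set against the rest without WT replicate 3, showed this little (-0.0643 to 0.0622). The differences of the 10 genes, and the medians and counts of other genes set beside them, are therefore given with all 6 libraries and without WT replicate 3, and means and SDs are over all libraries. The markers of CA1, CA2, CA3 and dentate neurons were measured in every library, with summed levels of 583 to 654 CPM (counts relative to the scaled library size) in 5xFAD and 420 to 768 CPM in WT for CA1, and of 599 to 697 CPM in 5xFAD and 379 to 635 CPM in WT for dentate granule cells. WT replicate 3 was the lowest library in both sums, and without it the WT sums were 738 and 768 CPM for CA1, above every 5xFAD library, and 612 and 635 CPM for dentate granule cells.

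The 10 genes lie on 8 chromosomes. On GRCm38, the assembly of mm10, Rxfp1 occupies chr3:79641611-79737880 on the minus strand, Rspo2 chr15:43020794-43170826 on the minus strand, Acot12 chr13:91741512-91786148 on the plus strand, Irak1bp1 chr9:82829540-82847687 on the plus strand and Faf1 chr4:109676588-109963960 on the plus strand. Pcnxl4 occupies chr12:72536383-72580119 on the plus strand, Tmem60 chr5:20882191-20886870 on the plus strand, Mlip chr9:77102081-77352969 on the minus strand, Etv1 chr12:38779380-38870484 on the plus strand and Cobl chr11:12236608-12464960 on the minus strand. HTSeq counts reads over exons, and only Acot12 shares exon bases with another annotated gene, 149 bases with the antisense gene 4833422C13Rik. The strand setting of the counting is not given in the sources used here. Reads on these 149 bases, of 3293 exon bases in Acot12, therefore cannot be told apart from reads of that antisense gene.

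Upstream sequence was found for 8 of the 10 genes in RefSeq promoters on GRCm38.p6, not for Rxfp1 and Rspo2. The 250 bases before the RefSeq start site had a median GC content of 65.0% in the 8 genes, against 52.0% in 27025 promoters of the same length. That larger set was not limited to tested or protein-coding genes, unlike the members. The windows of Acot12 and Pcnxl4 are shown because these genes were lower in 5xFAD than in every WT library, and those of Mlip and Cobl because in these genes WT replicate 3 was lowest of all 6 libraries. They lie at chr13:91741271-91741520 on the plus strand (Acot12), chr12:72536107-72536356 on the plus strand (Pcnx4), chr9:77347871-77348120 on the minus strand (Mlip) and chr11:12464961-12465210 on the minus strand (Cobl). Each runs 5′ to 3′ towards the start site, with capitals on the motifs searched on both strands, which were the Sp1 box GGGCGG, the TATA box TATAAA, the cAMP response element TGACGTCA, the ETS core CCGGAAG and the E-box CACGTG.
Acot12: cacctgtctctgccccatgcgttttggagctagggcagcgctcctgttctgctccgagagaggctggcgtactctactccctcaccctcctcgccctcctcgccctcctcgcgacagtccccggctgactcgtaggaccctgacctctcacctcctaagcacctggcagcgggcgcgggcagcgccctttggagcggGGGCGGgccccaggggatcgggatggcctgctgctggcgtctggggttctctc
Pcnx4: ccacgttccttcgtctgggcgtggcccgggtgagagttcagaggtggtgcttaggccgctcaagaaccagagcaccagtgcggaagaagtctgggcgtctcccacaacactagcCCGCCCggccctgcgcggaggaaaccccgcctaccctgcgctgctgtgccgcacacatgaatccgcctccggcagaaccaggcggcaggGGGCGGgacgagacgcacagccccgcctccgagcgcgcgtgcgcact
Mlip: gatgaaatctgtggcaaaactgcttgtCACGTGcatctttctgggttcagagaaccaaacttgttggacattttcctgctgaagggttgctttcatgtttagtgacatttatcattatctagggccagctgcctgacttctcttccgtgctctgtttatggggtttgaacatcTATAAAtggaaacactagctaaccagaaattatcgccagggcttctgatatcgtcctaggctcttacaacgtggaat
Cobl: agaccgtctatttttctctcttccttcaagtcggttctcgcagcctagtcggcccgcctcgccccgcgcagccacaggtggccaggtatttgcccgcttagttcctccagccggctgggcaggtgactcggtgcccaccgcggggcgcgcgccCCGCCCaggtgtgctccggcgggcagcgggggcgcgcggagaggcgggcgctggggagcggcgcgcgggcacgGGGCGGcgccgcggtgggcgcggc
In these windows the Acot12 sequence held 18 CpG dinucleotides and 1 Sp1 box, that of Pcnx4 26 CpG and 2 Sp1 boxes, and that of Cobl 36 CpG and 2 Sp1 boxes, with GC contents of 68.4%, 68.8% and 75.2%. The Mlip window differed, with 43.2% GC, 5 CpG, no Sp1 box, 1 TATA box and 1 E-box. It lies inside the longer Mlip gene of the GENCODE annotation. The windows of Irak1bp1, Tmem60 and Etv1, not shown, also lie inside their GENCODE genes, so these windows precede the RefSeq start site only. None of the capitalised motifs overlapped another. Over the 8 genes, 6 windows held an Sp1 box, 1 a TATA box and 3 an E-box, and none held the cAMP response element or the ETS core. Of all promoters of this length, 32.9% held the Sp1 box, 13.0% the TATA box, 6.05% the E-box, 1.62% the cAMP response element and 7.05% the ETS core. A match of letters is not evidence that a factor binds there.

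Rxfp1, the relaxin receptor gene, had 31, 32 and 38 counts in 5xFAD replicates 1 to 3, against 111, 109 and 140 in WT replicates 1 to 3. Scaled for library size, these were 3.84, 3.75 and 3.02 CPM in 5xFAD and 9.61, 10.01 and 13.3 CPM in WT. The groups did not overlap, and the highest 5xFAD library was far below the lowest WT library. The mean level was 3.54 ± 0.448 CPM in 5xFAD and 10.985 ± 2.05 CPM in WT (SD, n = 3 each), a log2 difference of -1.64 ± 0.297 (SE), or 3.11-fold lower in 5xFAD. Without WT replicate 3, which was the highest library for this gene, the difference was -1.47 ± 0.2995, or 2.78-fold lower.

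Rspo2, the R-spondin gene, had 11.8, 10.6 and 8.52 CPM in 5xFAD libraries, against 17.5, 19.8 and 19.5 CPM in WT libraries. No 5xFAD library reached the level of a WT library, and WT replicate 3 was close to WT replicate 2. The log2 difference was -0.89 ± 0.232 (SE) with all libraries and -0.86 ± 0.210 without WT replicate 3, so that this library hardly moved it.

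Acot12, the acetyl-CoA thioesterase gene, was close to the limit of detection in 5xFAD. It had 0, 1 and 2 counts in 5xFAD replicates 1 to 3, against 19, 12 and 15 in WT replicates 1 to 3, or 0.0921 ± 0.0825 CPM in 5xFAD and 1.39 ± 0.273 CPM in WT (SD, n = 3 each). All 3 WT libraries were above all 3 5xFAD libraries, and the gene passed the filter on low counts only through its WT counts. The summed 3 counts in 5xFAD and 46 counts in WT, relative to scaled library size, gave a 5xFAD level of 7.37% of that of WT (95% exact interval 1.47 to 22.9%), and without WT replicate 3 it was 7.45% (1.46 to 23.9%). These intervals cover counting error only. The fitted log2 difference was -3.64 ± 0.775 (SE) with all libraries and -3.61 ± 1.04 without WT replicate 3, values that depend on how the fit treats counts near 0.

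Irak1bp1, the IRAK1-binding protein gene, had 8.30, 6.21 and 6.85 CPM in 5xFAD, against 13.2, 15.2 and 13.7 CPM in WT. Here too WT replicate 3 lay between the other WT libraries and the groups were apart. The log2 difference was -0.98 ± 0.248 (SE), and -0.99 ± 0.235 without WT replicate 3, a level in 5xFAD close to 50.7% of that in WT with all libraries. Faf1, the Vcp cofactor gene, had 13.5, 16.5 and 16.9 CPM in 5xFAD, against 32.1, 22.5 and 31.0 CPM in WT. Its lowest WT library, replicate 2, was nearer to the 5xFAD libraries than the other WT libraries were. The log2 difference of Faf1 was -0.87 ± 0.231 (SE) and -0.80 ± 0.192 without WT replicate 3.

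Pcnxl4 and Tmem60, both membrane protein genes, were also below every WT library, but here WT replicate 3 was well above the other WT libraries and enlarged the difference. Pcnxl4 had 6.44, 7.15 and 7.24 CPM in 5xFAD, against 11.2, 15.6 and 21.9 CPM in WT. Its log2 difference was -1.22 ± 0.298 (SE) with all libraries and -0.94 ± 0.243 without WT replicate 3. Tmem60 was a rare transcript, with 6, 5 and 9 counts in 5xFAD and 27, 19 and 43 counts in WT. Its level was 0.682 ± 0.0841 CPM in 5xFAD and 2.73 ± 1.22 CPM in WT (SD, n = 3 each). Tmem60, like Acot12, passed the filter on low counts only through its WT counts. Its summed counts gave a 5xFAD level of 25.4% of that of WT (95% exact interval 14.8 to 41.6%), and without WT replicate 3 it was 33.5% (18.7 to 57.7%), intervals that again cover counting error only. The fitted log2 differences of Tmem60 were -1.97 ± 0.527 (SE) and, without WT replicate 3, -1.56 ± 0.665.

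Mlip, Etv1 and Cobl, the most abundant members, showed the opposite place of WT replicate 3. Mlip, the lamin-binding protein gene, had 123, 104 and 105 CPM in 5xFAD, against 208, 235 and 88.5 CPM in WT. Etv1, the ETS factor gene, had 97.6, 96.0 and 104 CPM in 5xFAD, against 138, 166 and 73.7 CPM in WT. Cobl, the actin nucleator gene, had 64.8, 60.4 and 58.3 CPM in 5xFAD, against 105, 84.0 and 56.6 CPM in WT. In all 3 genes WT replicates 1 and 2 were above every 5xFAD library and WT replicate 3 was below every 5xFAD library, so the groups overlapped. With all libraries the log2 differences were -0.68 ± 0.325 for Mlip, -0.34 ± 0.275 for Etv1 and -0.42 ± 0.234 for Cobl (SE). Without WT replicate 3 they were -1.0015 ± 0.102 for Mlip, -0.61 ± 0.105 for Etv1 and -0.63 ± 0.122 for Cobl. The direction of lower levels in these genes thus rests on 2 of the 3 WT libraries.

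**Figure D1:**
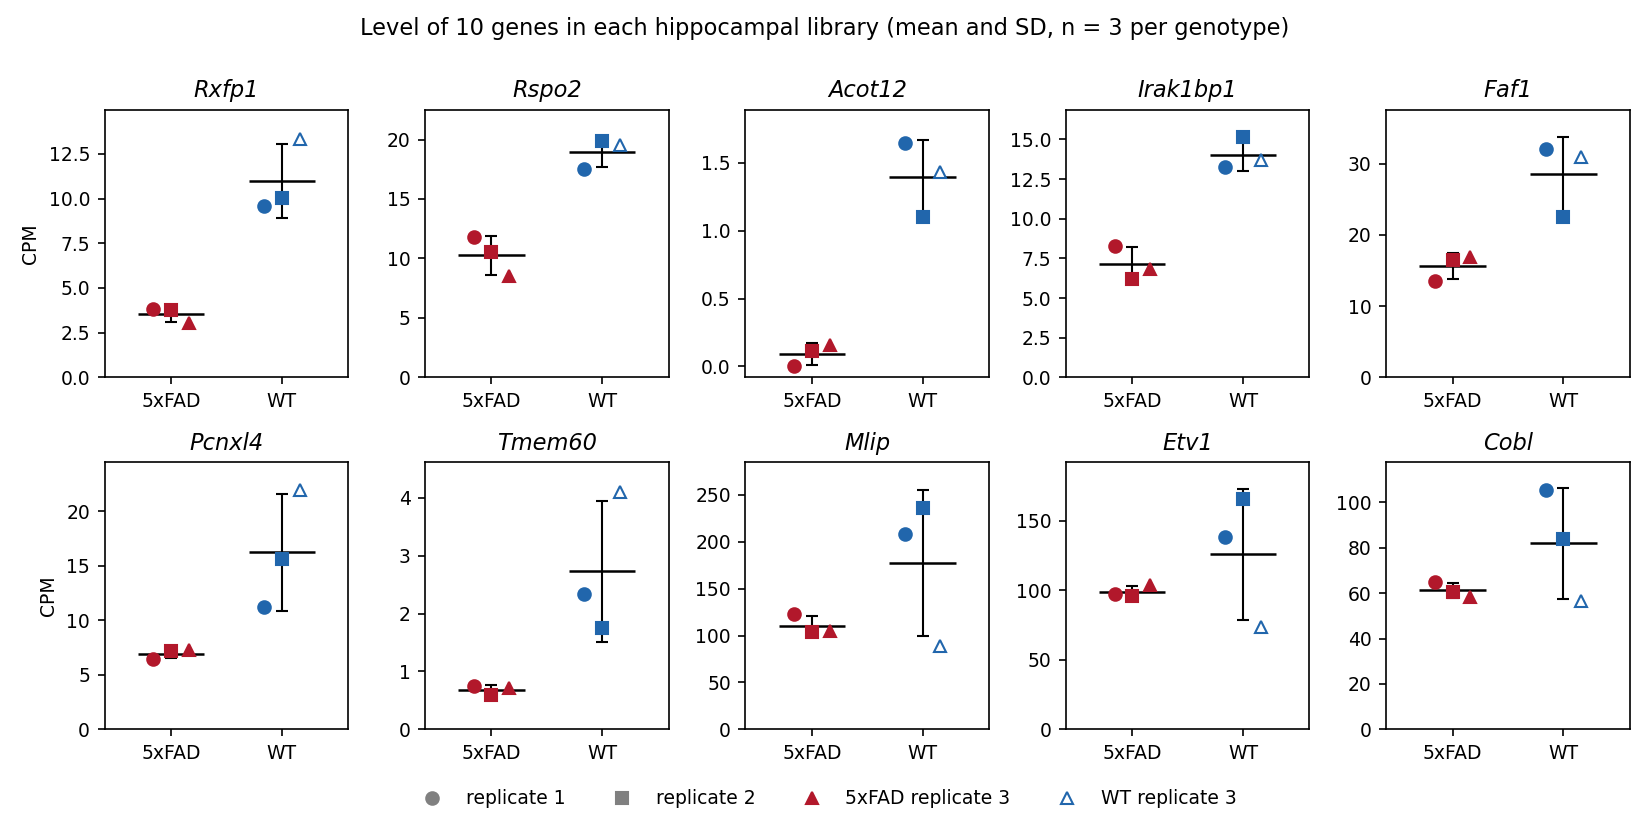
Level of each of the 10 genes in CPM (vertical axes, linear) in the 3 5xFAD libraries (red, left) and the 3 WT libraries (blue, right), with the mean and SD as black bars and WT replicate 3 as an open triangle. In Rxfp1, Rspo2, Acot12, Irak1bp1, Faf1, Pcnxl4 and Tmem60 all WT libraries are above all 5xFAD libraries, whereas in Mlip, Etv1 and Cobl WT replicate 3 is the lowest library.

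Over the list, 7 of the 10 genes had no overlap between the groups with all 6 libraries, and 10 of 10 had none without WT replicate 3. Of all tested genes, 6.35% were lower in 5xFAD with no overlap with all 6 libraries, and 14.8% without WT replicate 3. The median log2 difference of the 10 genes was -0.93, beside -0.02 over all tested genes, and -0.97 without WT replicate 3, beside 0.01 over all tested genes. The 7 genes from Rxfp1 to Tmem60 had a median of -1.22 with all libraries and -0.99 without WT replicate 3, and Mlip, Etv1 and Cobl had -0.42 and -0.63. The members were selected on this contrast, so nothing is read from these shares.

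The edgeR quasi-likelihood test with Benjamini-Hochberg adjustment called none of the 12952 genes lower in 5xFAD at an adjusted p of 0.05 with all 6 libraries, a background of 0.0%, and hence 0 of the 10 genes. At an unadjusted p under 0.05, 7 of the 10 genes and 1.78% of all tested genes were lower. DESeq2 called 6 of the 10 (Rxfp1, Rspo2, Acot12, Irak1bp1, Faf1 and Pcnxl4), beside 0.0695% of all genes. The edgeR exact test called 5 (Rxfp1, Acot12, Irak1bp1, Pcnxl4 and Tmem60), beside 0.0463%. Limma-voom called none, and with library weights it called 9, all but Tmem60, beside 0.425% of all genes. With no filter on low counts the quasi-likelihood test called Rxfp1 alone, 1 of the 10, beside 0.0057% of 17559 genes. Without WT replicate 3 the quasi-likelihood test called 8 of the 10, all but Acot12 and Tmem60, beside 0.501% of 13376 genes, and with GC correction added it called the same 8, beside 1.17%. These counts are descriptions too, since 7 of the 10 genes were among the 10 lower genes with the smallest p with all libraries, and 2 without WT replicate 3. The lower level of the members in 5xFAD is a tendency in these 6 libraries, and whether a call is made depends on the tool and on WT replicate 3.

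**Figure D2:**
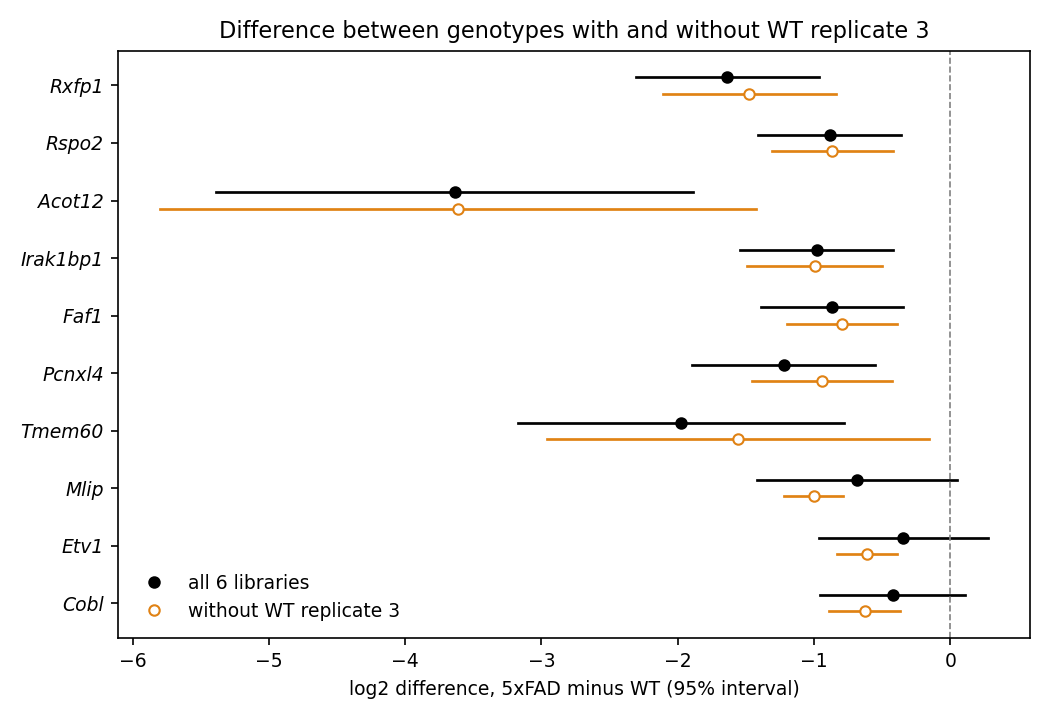
Fitted log2 difference of each gene, 5xFAD minus WT (horizontal axis), with its 95% interval, from all 6 libraries (filled black points) and without WT replicate 3 (open orange points). Without WT replicate 3 the points of Mlip, Etv1 and Cobl move away from 0 and their intervals narrow, and those of Pcnxl4 and Tmem60 move towards 0. The genes were picked for low values in these libraries, so the intervals show the uncertainty of the fitted difference and are no test.

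The members varied less among the 5xFAD libraries than among all 3 WT libraries, WT replicate 3 included, in 7 of the 10 genes. The coefficient of variation in 5xFAD was 4.23 to 15.99% for 9 genes and 89.5% for Acot12, which had 3 counts in all, and in WT it was 6.77 to 44.9% over the 10 genes. Rspo2 and Irak1bp1 also varied more in 5xFAD than in WT, with 15.99 and 15.04% in 5xFAD and 6.77 and 7.10% in WT. The widest WT spreads were those of Tmem60 (44.9%), Mlip (44.1%), Etv1 (37.5%), Pcnxl4 (33.0%) and Cobl (29.8%), the genes in which WT replicate 3 was farthest from the others.

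All 10 genes had a transcript GC content below the median of all tested genes, 41.3 to 50.3% with a median of 47.0%, against 51.2%. At such GC contents most transcripts were higher in WT replicate 3 than in WT replicates 1 and 2. In the decile of genes with the lowest GC content the median difference of WT replicate 3 from the mean of WT replicates 1 and 2 was 0.93 on the log2 scale, and in the decile with the highest it was -0.91. Rxfp1 (0.44), Faf1 (0.20), Rspo2 (0.07), Acot12 (0.07) and Irak1bp1 (-0.05) were below the median of their decile on this measure, while Pcnxl4 (0.72) and Tmem60 (0.95) were above it. Mlip (-1.32), Etv1 (-1.04) and Cobl (-0.73) were low in WT replicate 3 although transcripts of like GC content were high there, at percentiles 1.24, 2.33 and 10.6 of their decile. A correction of the counts for GC content left the log2 differences at -1.39 for Rxfp1, -0.79 for Rspo2, -3.50 for Acot12, -0.98 for Irak1bp1, -0.78 for Faf1, -1.09 for Pcnxl4 and -1.88 for Tmem60, and at -0.66 for Mlip, -0.33 for Etv1 and -0.47 for Cobl. The part of GC content in the place of WT replicate 3 was not tested gene by gene.

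**Figure D3:**
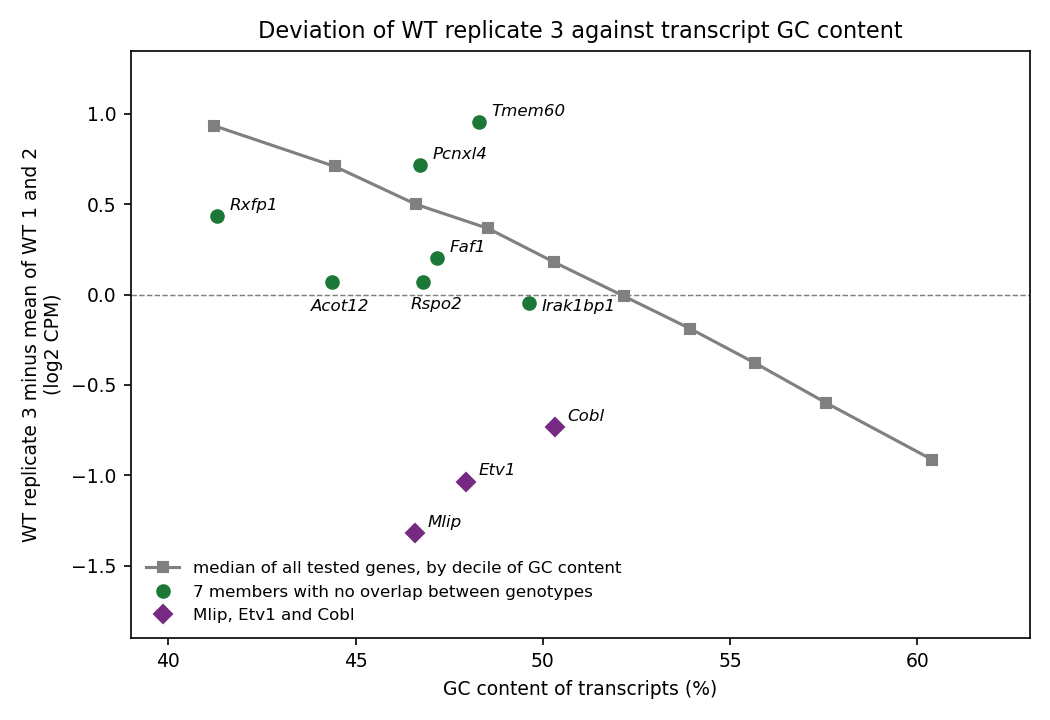
Difference of WT replicate 3 from the mean of WT replicates 1 and 2 in log2 CPM (vertical axis) against the GC content of transcripts in percent (horizontal axis). The grey line joins the medians of all tested genes by decile of GC content, from 0.93 to -0.91, with Pcnxl4 and Tmem60 above it and Mlip, Etv1 and Cobl (purple diamonds) more than 0.7 below 0.

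The members moved together within these subsets across libraries. Over the 6 libraries, the Pearson correlation of log2 CPM was 0.786 to 0.973 in the 21 pairs among the 7 genes from Rxfp1 to Tmem60, and 0.820 to 0.956 in the 3 pairs among Mlip, Etv1 and Cobl. Between the subsets it was -0.0201 to 0.583 in 21 pairs, and 0.765 to 0.994 over the 5 libraries without WT replicate 3. These are descriptions, since the points share libraries and the genes were chosen for a common direction.

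Levels differed widely between the members. Per kilobase of exon, the order of mean levels in 5xFAD was Mlip with 12.4 CPM per kb, Cobl with 7.51, Etv1 with 7.46, Irak1bp1 with 3.30, Faf1 with 3.07, Rspo2 with 2.01, Pcnxl4 with 1.62, Rxfp1 with 0.352, Tmem60 with 0.215 and Acot12 with 0.0280. In WT, Mlip had 19.9 CPM per kb, Cobl 10.1, Etv1 9.47, Irak1bp1 6.50, Faf1 5.60, Pcnxl4 3.78, Rspo2 3.71, Rxfp1 1.09, Tmem60 0.858 and Acot12 0.423. Both genotypes gave the same order but for Rspo2 and Pcnxl4, and this exception rests on WT replicate 3, without which Rspo2 had 3.65 and Pcnxl4 3.12 CPM per kb in WT. The ranges of neighbours in this order overlapped in 5xFAD for Cobl and Etv1, Irak1bp1 and Faf1, and Rspo2 and Pcnxl4. In WT the ranges of all 3 libraries separated Rspo2 from Rxfp1 and Tmem60 from Acot12, and every other pair of neighbours overlapped. Among all tested genes, the level in CPM placed Mlip at percentile 88.4 and Acot12 at percentile 0.0618.

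The partners of the members in their pathways were counted in 9 lists drawn up by known role, with the members left out. Of 146 tested partners, 0 were called lower and 0 higher in 5xFAD with all 6 libraries by the edgeR quasi-likelihood test, beside backgrounds of 0.0% lower and 0.656% higher. At an unadjusted p under 0.05, 3 were lower and 7 higher, beside 1.78% and 4.52% of all genes, and DESeq2 called 0 lower and 1 higher, beside 0.0695% and 1.61%. Their median log2 difference was 0.04, beside -0.02 for all tested genes. Without WT replicate 3, 0 were lower and 3 higher, beside backgrounds of 0.501% and 2.39%, with a median of 0.03. Of all tested genes, the exact test called 1.72% higher, limma-voom 0.602%, limma-voom with library weights 2.74%, the quasi-likelihood test without a filter 0.621%, with GC correction 0.903%, and without WT replicate 3 with GC correction 2.01%.

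The receptor and ligand side was as follows. For relaxin, Rxfp3, the receptor for relaxin-3, was the only tested partner of 7 listed, with 5.38 ± 1.82 CPM in 5xFAD and 4.02 ± 2.00 CPM in WT (SD, n = 3 each). Of 26 tested R-spondin and Wnt receptor genes, 10 had a difference below 0 and 16 above, with a median of 0.16, and without WT replicate 3 it was 13 and 13, with a median of -0.0043. The Wnt co-receptor Lrp6 had 104.5 ± 6.39 CPM in 5xFAD and 104.6 ± 25.0 CPM in WT, and the Wnt target Axin2 98.2 ± 5.84 CPM in 5xFAD and 85.5 ± 30.6 CPM in WT. Beta-catenin itself, Ctnnb1, had 174.5 ± 2.56 CPM in 5xFAD and 182 ± 49.6 CPM in WT. The log2 differences were -0.0017 ± 0.207, 0.20 ± 0.270 and -0.06 ± 0.214 (SE) with all libraries for Lrp6, Axin2 and Ctnnb1, and 0.19 ± 0.121, -0.07 ± 0.104 and 0.19 ± 0.0913 without WT replicate 3. Each sign thus turned when this library was left out. In the list from the IL-1 receptor to IRAK1 and NF-kB, 22 genes were tested with a median of 0.06, and of 0.28 without WT replicate 3, led in abundance by Tab2, Tollip and Ikbkb.

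Among the enzymes and cofactors the sign of a list's median also moved with WT replicate 3. Of 21 tested acyl-CoA thioesterases and acetyl-CoA enzymes, 13 had a difference below 0 and 8 above, with a median of -0.13, and without WT replicate 3 it was 9 below and 12 above, with a median of 0.08. The brain acyl-CoA thioesterase Acot7 had 187 ± 7.63 CPM in 5xFAD and 181 ± 29.8 CPM in WT, and Acly, which makes cytosolic acetyl-CoA from citrate, 143 ± 5.16 CPM in 5xFAD and 116 ± 8.45 CPM in WT (edgeR adjusted p = 0.810, and 0.0733 without WT replicate 3). Of 19 tested genes around p97 and the Fas pathway, 9 were below 0 and 10 above, with a median of 0.0076, and of 0.12 without WT replicate 3. Vcp, which encodes p97, had 101 ± 12.8 CPM in 5xFAD and 118 ± 50.3 CPM in WT, where WT replicate 3 was highest, and its log2 difference was -0.22 with all libraries and 0.20 without WT replicate 3.

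The structural and transcriptional partners showed no call with all libraries either. The other 3 pecanex genes had log2 differences of -0.03 to 0.35, beside the -1.22 of Pcnxl4, and of -0.21 to 0.08 without WT replicate 3, beside -0.94. Among 17 tested PEA3 factors and genes of FGF-ERK feedback, 10 were below 0 and 7 above, with a median of -0.08, and of -0.09 without WT replicate 3, and Fgfr1 had 258.5 ± 16.2 CPM in 5xFAD and 204 ± 68.0 CPM in WT (log2 difference 0.34, and 0.09 without WT replicate 3). Among 22 tested actin nucleators and Cobl partners the median was 0.11, and -0.06 without WT replicate 3, and Pacsin1, a membrane-curving partner of Cobl, had 872 ± 29.8 CPM in 5xFAD and 850 ± 296 CPM in WT (log2 difference 0.04, and -0.22 without WT replicate 3). Among 15 tested lamin and inner nuclear membrane entries the median was 0.0998, and -0.09 without WT replicate 3. The 3 partners called without WT replicate 3, all higher in 5xFAD there and named after their values were seen, were the Wnt co-receptor Lrp5 (log2 difference 0.49 ± 0.124 SE, edgeR adjusted p = 0.0425), the sterol synthesis enzyme Hmgcs1 (0.65 ± 0.128, 0.00694) and the haematopoietic actin regulator Was (1.57 ± 0.391, 0.0370). With all libraries Lrp5 was at 0.77 and Was at 1.75, but Hmgcs1 was at -0.19, the other direction, and WT replicate 3 had 141 CPM of it and the other WT libraries 41.1 and 43.2 CPM.

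**Figure D4:**
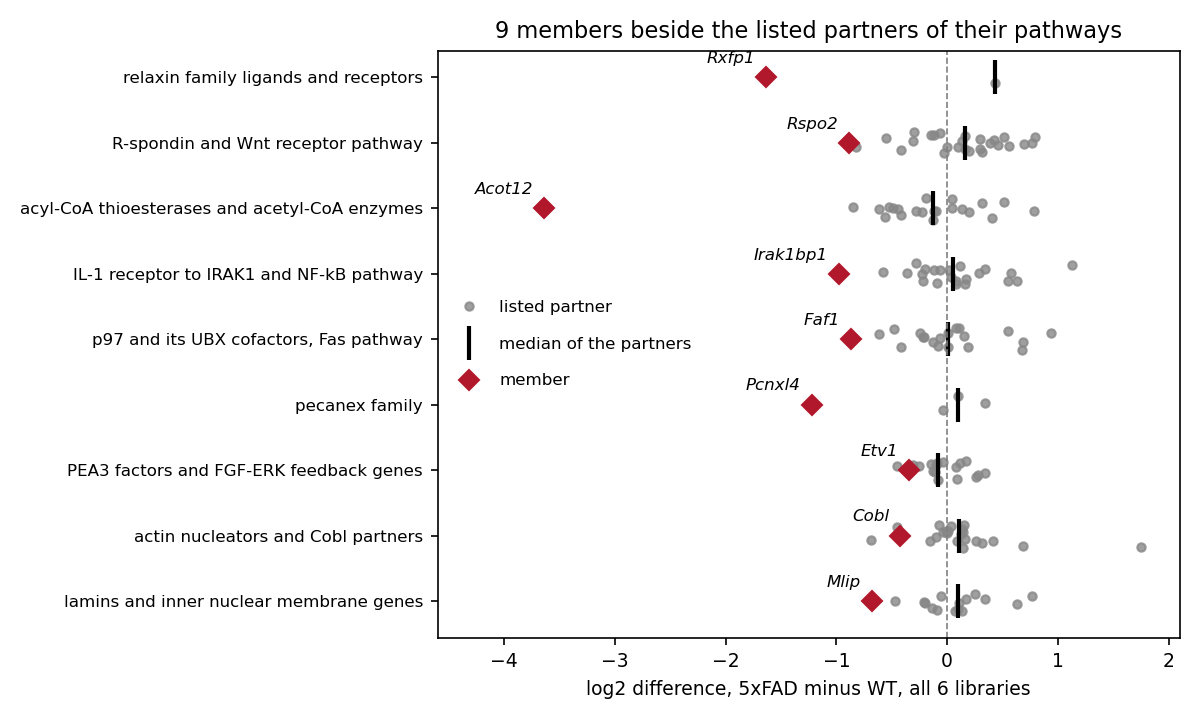
Log2 difference, 5xFAD minus WT with all 6 libraries (horizontal axis), of the 146 tested partners (grey points, spread vertically for visibility), the median of each list (black bar) and the member that belongs to it (red diamond). List medians are between -0.13 and 0.43, several of which change sign without WT replicate 3, and the members are at -0.34 for Etv1 to -3.64 for Acot12.

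The genes next to the members on the chromosome showed no call. For each member the nearest tested gene on either side was taken, 20 genes in all, and the edgeR quasi-likelihood test called 0 of 20 with all libraries (smallest adjusted p 0.767) and 0 without WT replicate 3 (0.266). Their median log2 difference was -0.20, with 16 below 0, and the range was -0.96 for Eif3e, a translation initiation factor gene beside Rspo2, to 0.90 for Dmrta2, beside Faf1. These values rested in part on WT replicate 3, without which the median was -0.06 with 13 below 0, Eif3e was at -0.02, and the range was -0.50 for Hmgcll1, beside Mlip, to 1.02 for Angpt1, beside Rspo2. The closest neighbour was Phtf2, 0.067 kb from Tmem60, with 4.48 ± 1.64 CPM in 5xFAD and 6.14 ± 2.13 CPM in WT (SD, n = 3 each). Lrrc9, 5.63 kb from Pcnxl4, had 2.95 ± 0.657 CPM in 5xFAD and 2.73 ± 0.460 CPM in WT. Etfdh, 12.1 kb from Rxfp1, had 16.7 ± 1.26 CPM in 5xFAD and 17.6 ± 2.97 CPM in WT. Tmem144, 74.7 kb from Rxfp1 on the other side, had 6.30 ± 1.92 CPM in 5xFAD and 7.51 ± 1.15 CPM in WT. Log2 differences were -0.08 for Etfdh and -0.25 for Tmem144, and 0.02 and -0.21 without WT replicate 3. Those of Rxfp1 were -1.64 and -1.47.

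The tested genes whose pattern was most like that of a member were taken by the Pearson correlation of log2 CPM over the 6 libraries, which was 0.979 to 0.996 for the 3 nearest of each member. They were Ralyl (0.991), Foxp2 (0.987) and Tspyl5 (0.982) for Rxfp1, Ccny, Plekhg5 and Nt5m for Mlip, and Peg10 (0.993), L3mbtl1 (0.992) and Fezf2 (0.983) for Etv1. Those of the other members are not named here. With 6 libraries and 12952 genes, high values are found for any pattern, and the correlation has no test here. Of the 30 nearest genes of all members, only Foxp2 and Fezf2 stand in a marker list, that of 9 markers of neocortical layers. There they mark layer 6 and layer 5 neurons. Foxp2 had 3.97, 3.99 and 4.06 CPM in 5xFAD, against 6.49, 6.89 and 8.003 CPM in WT. Fezf2 had 64.3, 65.2 and 61.2 CPM in 5xFAD, against 89.2, 108 and 42.3 CPM in WT.

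Markers of other cells were set beside these values. The summed level of the 9 neocortical markers was 885 to 1126 CPM in 5xFAD and 533 to 1167 CPM in WT, lowest in WT replicate 3, and the ranges overlapped, also without that library, when the WT sums were 1056 and 1167 CPM. All 9 were measured, none was called with all libraries by the edgeR quasi-likelihood test, and without WT replicate 3 Fezf2 alone was called lower (log2 difference -0.63 ± 0.116 SE, edgeR adjusted p = 0.00375). The median log2 difference of the 9 was -0.29, and -0.41 without WT replicate 3. Medians of the marker lists ran from -0.62 (6 tested striatal markers) to 1.46 (microglia), and from -0.63 to 1.73 without WT replicate 3. Striatal sums were 130 to 207 CPM in 5xFAD and 70.8 to 177 CPM in WT, and no striatal marker was called. The summed level of 8 interneuron markers was 446 to 591 CPM in 5xFAD and 568 to 655 CPM in WT, and without WT replicate 3 the WT sums, 599 and 655 CPM, were above every 5xFAD library. Microglial markers were 639 to 700 CPM in 5xFAD and 153 to 248 CPM in WT, with 3 of 7 tested called higher, or 6 without WT replicate 3, and choroid plexus markers varied most, from 738 to 4377 CPM in 5xFAD and 407 to 2319 CPM in WT. The part of these cells in the values of the 10 genes was not tested.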

How the data were processed

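Hippocampal RNA of 5xFAD and WT mice, 3 libraries each, was depleted of rRNA and sequenced as paired ends. Per the submitters' processing notes, the authors used cutadapt 1.9.3, HISAT2 2.0.4, HTSeq 0.9.1 and edgeR 3.16.5 with mm10. Annotation release and strand setting: not given in the sources used here. The values used were the raw counts of the deposited table, made by the authors with HTSeq. A further 6 columns of normalised log2 values of the authors were not used. The 10 members and all gene lists were chosen with earlier results of these data known.

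Genes were kept by filterByExpr (minimum count 10), scaled with TMM and tested with the edgeR 4.0.16 quasi-likelihood test in R 4.3.3, without covariates, with Benjamini-Hochberg adjustment over all 12952 genes at 0.05. TMM factors were 0.956 to 1.00 in 5xFAD, and 0.956, 0.913 and 1.21 in WT replicates 1 to 3. The common dispersion was 0.0808, and a prior count of 2 entered log2 CPM. Standard errors were taken from the F statistic of each gene's log2 difference, and the 95% intervals follow from them. Of the 18263 genes, 704 had no count. The scripts were tested on simulated data. Positions, exons and GC content came from GENCODE M21 by identifier, and promoter sequences from RefSeq. GC content was known for 99.42% of tested genes. Replicates of a group differed by more than counting noise (chi-square per degree of freedom 6.92 to 123.7). Named genes were all members, any called partner and the 3 most abundant tested partners of each list, and the nearest tested gene on each side of a member. The 3 genes most correlated with a member were named for Rxfp1, Mlip and Etv1. Alternatives were RLE and upper-quartile scaling, no filter and a minimum count of 30, DESeq2 1.42.0, the edgeR exact test, limma-voom 3.58.1 with and without library weights, correction for GC content, a replicate block, leaving out each library, and, added after seeing the data, leaving out WT replicate 3 with GC correction.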

Additional observations from a re-analysis of the deposited data

How the results depend on the processing

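The median log2 difference of the 10 genes was -0.88 to -1.05 over all alternatives run. Of 177 values of single members under 18 alternatives, 173 moved by less than the spread between replicates, 4 moved by more and 0 changed sign. All values of Mlip, Etv1 and Cobl, genes with wide WT spreads, were counted as moving by less. Their log2 differences still ran from -0.42 to -1.06 for Mlip, -0.10 to -0.68 for Etv1 and -0.20 to -0.72 for Cobl. The tally is thus no sign that the size of these differences was steady. The count of members called lower was 0 in the main analysis, and 1 without a filter (Rxfp1), 6 with DESeq2, 5 with the exact test, 9 with library weights in limma-voom, and 8 without WT replicate 3 with GC correction. Leaving out each library in turn gave 0 to 8 members, and only leaving out WT replicate 3 gave any. Genes called lower numbered 0 in the main analysis, against 1 without a filter, 9 with DESeq2, 6 with the exact test, 55 with library weights and 156 without WT replicate 3 with GC correction, and 0 to 67 over the left-out libraries. Genes called higher numbered 85, against 209 with DESeq2, 223 with the exact test, 355 with library weights, 136 with the replicate block and GC correction together, and 269 without WT replicate 3 with GC correction, with 15 (without 5xFAD replicate 3) to 320 (without WT replicate 3) over the left-out libraries, among them 23 and 16 without 5xFAD replicates 1 and 2, and 42 without WT replicate 1. Pathway partners called higher numbered 0, against 1 with DESeq2, 1 with the exact test, 4 with library weights, 2 without WT replicate 3 with GC correction and 0 to 3 over the left-out libraries, and 3 partners were called lower only without WT replicate 3 with GC correction. The cause of these shifts was not tested. The labels give both genotypes replicate numbers 1 to 3 and do not say that like numbers are pairs. Same-numbered libraries had correlated deviations of 0.0937, 0.0694 and 0.177, the highest for each library, against -0.14 to 0.0481 for unlike numbers. The main test did not take the numbers as pairs. With the replicate block, 0 genes were lower, 120 higher and 0 members called. A minimum count of 30 removed Acot12 and Tmem60, and Acot12 also failed the filter without WT replicate 1. With 3 libraries per genotype and 3 to 20 summed counts in 5xFAD, the size of the difference in these genes is imprecise.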

Other observations

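Close relatives of the members, chosen after their values were seen, did not pass the edgeR quasi-likelihood test with all 6 libraries or without WT replicate 3 (means ± SD, n = 3 each, all libraries). Etv5, an ETS factor of the same PEA3 group as Etv1, had 104.5 ± 15.4 CPM in 5xFAD and 112 ± 37.7 CPM in WT, and Etv4 had 8.78 ± 1.89 CPM in 5xFAD and 10.8 ± 6.19 CPM in WT. Both had their lowest WT level in WT replicate 3, as Etv1 did, and without it their log2 differences were -0.36 ± 0.115 for Etv5 and -0.71 ± 0.233 for Etv4 (SE, edgeR adjusted p 0.134 and 0.141), against -0.10 and -0.30 with all libraries. Faf2, the relative of Faf1, had 49.3 ± 2.91 CPM in 5xFAD and 53.8 ± 2.28 CPM in WT. Cobll1, the relative of Cobl, had 38.4 ± 7.56 CPM in 5xFAD and 34.6 ± 10.015 CPM in WT. Rspo3, a second R-spondin gene, had 13.0 ± 4.29 CPM in 5xFAD and 16.003 ± 2.17 CPM in WT, and the R-spondin receptor Lgr4 had 31.3 ± 1.91 CPM in 5xFAD and 33.9 ± 3.09 CPM in WT. Rspo1 and the receptors Lgr5 and Lgr6, at lower levels, were higher in 5xFAD with all libraries. Their log2 differences were 0.51, 0.79 and 0.16, and 0.32, 0.69 and -0.06 without WT replicate 3. Direct partners did not pass either. Irak1, the kinase bound by Irak1bp1, had 16.3 ± 2.19 CPM in 5xFAD and 14.5 ± 0.432 CPM in WT, and Lmna, which encodes the lamins bound by Mlip, had 66.2 ± 3.95 CPM in 5xFAD and 60.2 ± 19.3 CPM in WT. The log2 difference of Lmna was 0.14 with all libraries and -0.09 without WT replicate 3, and that of Cobll1 was 0.15 and -0.00096. Those of Faf2 (-0.13 and -0.12), Rspo3 (-0.30 and -0.24), Lgr4 (-0.11 and -0.18) and Irak1 (0.16 and 0.17) kept their sign.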
